A study of Mus musculus with 15 samples.

Results

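The genes described here are the protein-coding mouse genes whose symbol is Zfp followed by digits only and which lie on chromosomes 7, 8, 13 and 17. They number 185 of 21853 protein-coding genes of the GENCODE M21 annotation (mm10), with 89 on chromosome 7, 41 on chromosome 17, 31 on chromosome 13 and 24 on chromosome 8. The rule uses only symbol and position, and no measured value of a gene enters it. CUT & RUN, in which a nuclease tethered by an antibody releases the DNA around a chromatin protein, was performed on bone marrow-derived macrophages (BMDMs) grown for 6 to 8 days in L929 conditioned medium. There were 2 biological replicates each of H3.3-HA, of H3K27ac in WT and cKO cells, and of H3K36me3 in WT and cKO cells, which makes 10 lists of enriched regions. The other 5 of the 15 samples were IgG controls. IgG entered through the region calling, and whether all 5 were used there is not given.

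The H3.3-HA libraries came from knock-in mice that carry an HA tag on H3f3b, 1 of the 2 genes encoding the histone variant H3.3. WT denotes mice with floxed H3f3a and H3f3b and no Cre, and H3.3cKO (cKO) the same floxed mice with LysM-Cre, which is expressed from the Lyz2 locus, mainly in myeloid cells. Marrow came from young adult C57BL/6 mice, and no floxed allele or Cre is given for the H3.3-HA mice. A region list shows where a signal passed a threshold over IgG and not how strong it was, so every value below is the percent of bases of a window that lay inside regions ("cover"). The windows were the gene body, the last (3') exon, the rest of the body, and 1 kb on each side of the gene start. A lower cover cannot separate fewer cells with the mark from less mark per cell.

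C2H2 zinc finger genes form the largest family of mammalian transcription factors, and many of them sit in tandem clusters that grew by gene duplication. Many encode an N-terminal KRAB domain that binds Trim28 (KAP1), which brings in the H3K9 methyltransferase Setdb1, and a C-terminal array of zinc fingers that reads DNA, often in transposable elements. The whole array is commonly encoded by the last exon. H3K36me3 is laid down by Setd2 behind elongating RNA polymerase and builds up toward the 3' end of transcribed genes. H3K27ac marks active promoters and enhancers. H3.3 is deposited outside replication, by Hira at transcribed genes and by Atrx and Daxx at repeats.

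By a search of the translated coding sequences for 2 cysteines and 2 histidines at C2H2 spacing, 180 of the 185 genes encoded at least 1 finger, with a median of 12 and a maximum of 33. Of 2122 fingers, 1958 (92.3%) lay wholly in the last exon. The 5 genes without a match were Zfp36, Zfp330, Zfp414, Zfp703 and Zfp935, and Zfp36 (tristetraprolin) is a CCCH protein that binds AU-rich elements of cytokine mRNAs. To show what such an exon repeats, 1 finger unit of 84 bases is given for each of 5 genes, read from RefSeq's GRCm38.p6 sequence on the coding strand, with the codons of the 2 cysteines and 2 histidines in capitals. Zfp869 had the highest H3K36me3 cover over its body, Zfp945 lay at the median for the last exon, Zfp109 and Zfp758 were among the genes with the largest difference between WT and cKO, and Zfp710 had the highest H3.3-HA cover over its last exon.
Zfp869: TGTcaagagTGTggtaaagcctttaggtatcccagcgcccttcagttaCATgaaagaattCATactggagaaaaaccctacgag
Zfp945: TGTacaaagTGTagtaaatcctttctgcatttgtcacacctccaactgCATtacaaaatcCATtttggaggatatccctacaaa
Zfp109: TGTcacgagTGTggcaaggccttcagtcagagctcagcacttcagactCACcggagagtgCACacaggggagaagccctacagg
Zfp758: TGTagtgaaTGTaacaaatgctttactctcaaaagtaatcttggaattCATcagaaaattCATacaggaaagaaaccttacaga
Zfp710: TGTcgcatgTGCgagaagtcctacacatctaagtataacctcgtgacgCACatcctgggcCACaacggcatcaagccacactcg
These units lie at chr8:69707295-69707378 (minus strand), chr17:22852207-22852290 (minus), chr7:24229047-24229130 (minus), chr17:22375249-22375332 (plus) and chr7:80081971-80082054 (plus). The first 4 are in the last exon of their gene, whereas that of Zfp710 is in an internal exon. The 4 units from last exons were identical at 50.0% to 65.5% of their bases in pairs, and the Zfp710 unit was identical to them at 40.5% to 50.0%.

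The libraries held 5365319 to 29988098 tags and 35018 to 61764 regions, and the H3.3-HA libraries were the shallowest. The region list of cKO H3K36me3 replicate 1 spanned 90.7 Mb against 163.5 to 170.5 Mb in the other 3 H3K36me3 lists, with 19.34% of its tags in regions against 46.54% to 50.24%. The pooled differences and the counts of bodies by gene are therefore also given without it. Relative differences, last-exon counts, joint counts, cluster counts and partner counts use it and are not given without it. H3K36me3 regions lay on 9 of 10 macrophage marker genes in both WT and in both cKO libraries, and no marker of T cells, B cells, neutrophils, dendritic cells or fibroblasts had one in both libraries of either group. H3K27ac covered 11.1% to 25.9% of the macrophage markers. It covered 0 of the 5 neutrophil markers in WT and 2.40% and 1.54% in cKO, with Ly6g, S100a8 and S100a9 at 0 throughout. Of 3 dendritic cell markers, 1 had H3K27ac in both WT and 2 in both cKO libraries (1.03% to 3.48% of bases). T cell markers were at 0 in WT and at 1.10% and 1.71% in cKO, B cell markers at 0.963% to 3.3%, and the 3 fibroblast markers at 0 in all these lists. The part of such cells in the results was not tested. The floxed gene H3f3b had more cover in the cKO libraries (H3K36me3 39.6% and 33.6%, against 10.7% and 14.2% in WT), and H3f3a had about the same (67.9% and 73.0%, against 72.3% and 77.8%). H3K27ac covered 55.4% and 73.6% of H3f3b in cKO, against 23.9% and 24.1% in WT. The paper places loxP sites on both sides of the H3f3b exons. Reads between these sites can come only from undeleted copies, and the share of such copies was not tested. Region lists do not measure a deletion, which the study checked by PCR, RNA and western blot. The paper reports that deletion of H3f3b varied between cKO samples, from partial to complete. How complete it was in the libraries used here is not given, and WT and cKO are used as labelled.

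The last exons of the zinc finger genes were mostly covered by H3K36me3 and nearly free of H3.3-HA and H3K27ac regions. In WT cells H3K36me3 regions covered 69.1% and 69.0% of their last-exon bases, against 29.6% and 30.2% of the rest of their bodies. The difference between last exon and rest was 39.2 percentage points ± 0.517 (SD, n = 2). Over all protein-coding genes the last exons were covered at 29.9% and 31.2%, and over the other genes of the same 4 chromosomes at 25.7% and 27.1%. The Zfp genes of other chromosomes lay between, at 55.3% and 57.3%. In all 4 H3K36me3 lists, cKO included, the last exons of the zinc finger genes had 2.25 to 3.02 times the cover of those of the other 21668 genes (two-sided exact sign-flip test over the 4 libraries, p = 0.125, the smallest this number allows).

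Counted by gene, 149 of 185 (80.5%) had an H3K36me3 region in the last exon in both WT libraries, against 35.7% of the other protein-coding genes and 122 of 180 Zfp genes elsewhere. The last exon was wholly covered in both WT libraries in 65 genes (35.1%), against 19.3% of all genes. The median gene had 89.0% and 84.0% of its last exon covered. Zfp945 (chr17:22846697-22867134), which lay at that median, had 89.2% and 79.5% of its 5285 bp last exon with 18 fingers covered in WT. Among the genes with the highest values, Zfp934, Zfp935, Zfp942 and Zfp943 had last exons at 100% in both WT libraries. The regions over Zfp934 also lay over the annotated Zfp935, so the body values of this pair partly come from the same DNA. Zfp869, a gene of 4393 bp, was covered from end to end in both WT and both cKO libraries. Zfp110 (the neurotrophin receptor interacting factor), Zfp958, Zfp131 (a BTB domain protein) and Zfp871 followed, with 95.5%, 92.5%, 91.8% and 91.1% of the body in WT. Of these 5, Zfp131 had only 1 of its 5 fingers in the last exon, and that exon was covered at 38.3% and 51.3%.

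**Figure D1:**
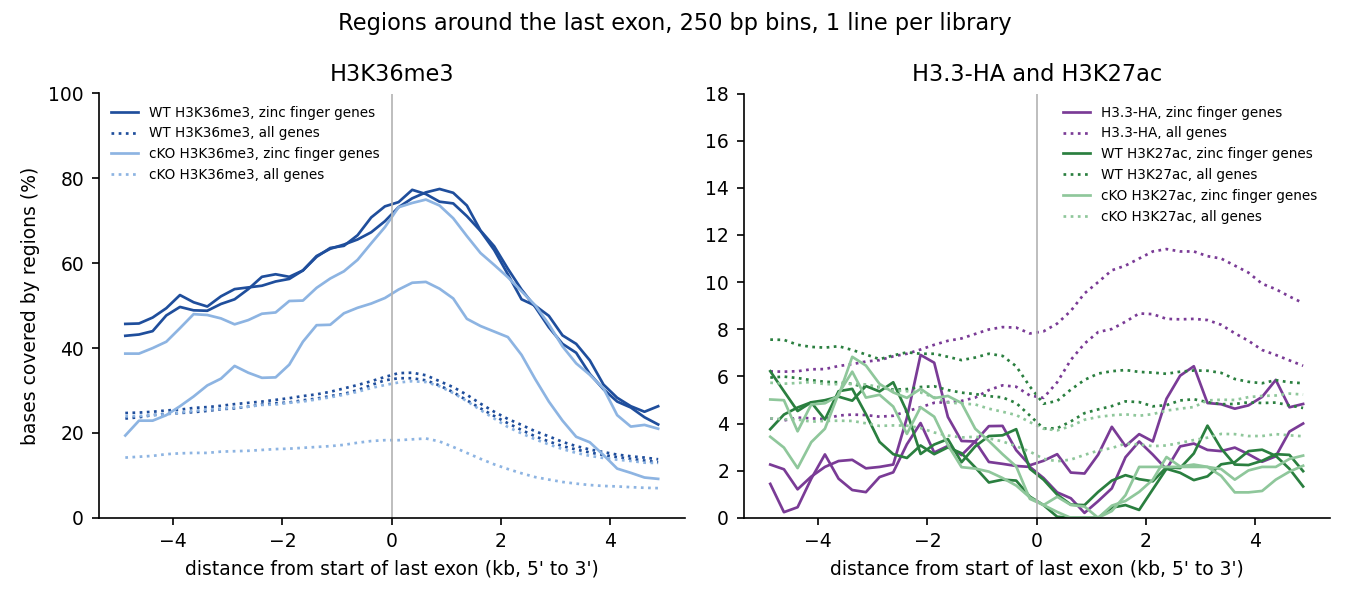
Percent of bases inside regions (y axis) in 250 bp bins by distance from the start of the last exon in kb (x axis), for the zinc finger genes (solid) and all protein-coding genes (dotted), 1 line per library. WT H3K36me3 over the zinc finger genes averages 76.5% in its highest bin, 500 to 750 bp into the last exon, against 33.5% in the highest bin over all genes, while the solid H3.3-HA and H3K27ac lines lie below the dotted lines of the same mark there.

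The bases that encode the fingers amount to 133.9 kb in the 180 genes. WT H3K36me3 regions covered 81.1% of them in both libraries, against 67.9% and 68.0% of the other coding bases of the same genes and 32.8% and 33.9% of the coding bases of all other genes. In the 16 genes with all fingers outside the last exon, the finger bases were covered at 52.1% and 50.4%, below the other coding bases. In the cKO lists the finger bases were covered at 59.2% and 77.5%. H3.3-HA regions covered 0.05% and 0.853% of the finger bases, against 2.90% and 5.34% of coding bases elsewhere. H3K27ac covered 0.745% and 0.0471% in WT, and no finger base lay in a cKO H3K27ac region.

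**Figure D2:**
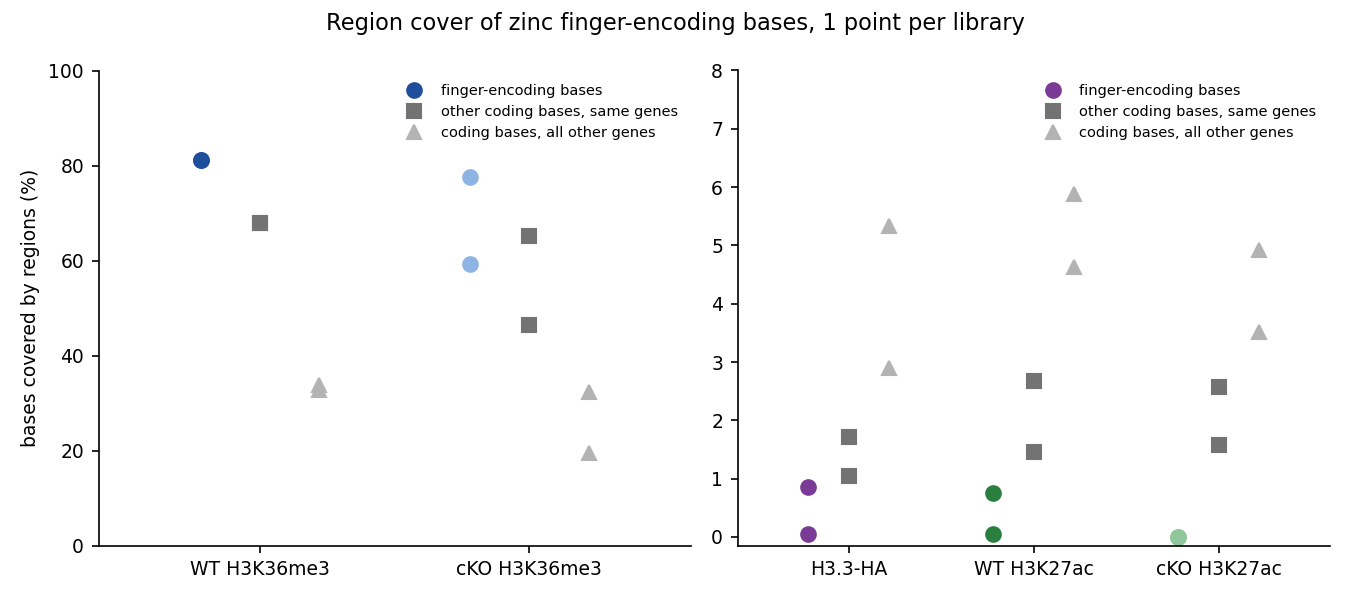
Percent of bases inside regions (y axis) for the bases that encode zinc fingers (coloured circles), the other coding bases of the same genes (squares) and the coding bases of all other genes (triangles), 1 point per library. The finger bases are highest for H3K36me3, at 59.2% to 81.1%, and lowest for H3.3-HA and H3K27ac, under 1% in every library.

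H3.3-HA regions covered 2.46% and 3.85% of the bodies of these genes (3.15% ± 0.982, SD, n = 2), against 3.68% and 4.14% over all genes. In 121 and 108 of the 185 genes (65.4% and 58.4%) no H3.3-HA region lay in the body, against 56.9% and 54.5% of all genes, so the bodies lay near the background. Last exons were covered at 1.54% and 2.60% and the rest of the bodies at 2.58% and 4.02%, which puts the last exon lower by 1.04 and 1.42 points. The Zfp genes of other chromosomes had the same order, with 1.81% and 1.40% of last exons and 3.83% and 3.37% of the rest. Over all protein-coding genes the order was the other way, with 6.23% and 7.14% of last exons and 3.59% and 4.04% of the rest. With 2 libraries an exact sign-flip test of members against the other genes cannot go below p = 0.500, so this contrast is a description in which both libraries point the same way.

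Only 8 of 185 genes (4.32%) had an H3.3-HA region in the last exon in both libraries, against 9.55% of the other protein-coding genes and 5 of 180 Zfp genes elsewhere. These 8 were Zfp710, Zfp865, Zfp784, Zfp296, Zfp553, Zfp629, Zfp319 and Zfp367, of which Zfp553, Zfp629 and Zfp319 are named because the count is small, after their values were seen. In Zfp710 H3.3-HA covered 41.1% and 100% of the last exon, in Zfp865 34.7% and 44.6%, and in Zfp367 19.9% and 9.65%. The last exon of each of these 3 genes holds none of its fingers, of which Zfp865 has 20 and Zfp710 has 11. Zfp784 followed with 30.3% and 44.0% and Zfp296 with 15.3% and 48.5%, and both have all 6 of their fingers in the last exon. Zfp865 and Zfp784 overlap tail to tail on chromosome 7, so part of their last-exon cover is the same DNA. In the 16 genes with every finger outside the last exon, the last exons were covered at 9.76% and 16.5%, while no base of their fingers lay in an H3.3-HA region. Zfp710, Zfp865 and Zfp367 are among these 16. They were the only ones of the 16 with H3.3-HA in the last exon in both libraries, so the pooled values rest largely on them. Where all fingers lay in the last exon (158 genes) H3.3-HA covered 0.892% and 1.50% of it. Zfp580 and Zfp771 also rank high, but rest on 1 library: their last exons were at 100% in replicate 2 and at 0 in replicate 1.

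Over whole bodies, the genes with the most H3.3-HA were Zfp296 (54.9% and 64.8%), Zfp710 (36.3% and 79.3%), Zfp715 (45.2% and 44.1%), Zfp580 (0 and 77.3%) and Zfp784 (26.3% and 22.4%). All 5 are on chromosome 7. Zfp710 and Zfp715 were also the genes with the highest WT H3K27ac, at 64.9% and 66.5% and at 64.6% and 54.0% of the body. Zfp715 is an exception among clustered genes: it carried all 3 marks over much of its body, yet its last exon with 18 fingers was at 19% and 0 for H3.3-HA, at 0 for H3K27ac in all 4 lists, and at 100% for H3K36me3 in all 4.

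At the gene start the same genes were not depleted. H3K27ac covered 28.5% and 25.7% of their start windows in WT, against 17.3% and 16.0% over all genes, and 83 of 185 (44.9%) had a region there in both WT libraries, against 27.7% of the other genes. The Zfp genes of other chromosomes lay between, at 23.1% and 21.8%, and 37.2% of them had a region there in both. Across the 4 H3K27ac lists the start windows of the zinc finger genes had 1.38 to 1.66 times the cover of those of other genes, and their last exons 0.0528 to 0.206 times (p = 0.125 for each, the same exact sign-flip test). H3.3-HA covered 6.88% and 14.7% of start windows, with a region in both libraries in 34 genes (18.4%), against 13.2% of the other genes. Zfp330 (a nucleolar protein) and Zfp787 had the next highest H3K27ac over the body after Zfp710 and Zfp715, at 57.9% and 59.8% and at 34.4% and 42.5%, followed by Zfp367 at 34.6% and 30.5%. Only Zfp710 and Zfp703 had H3K27ac in the last exon in both WT libraries.

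Taking start and last exon jointly, 77 genes (41.6%) had WT H3K27ac at the start and H3K36me3 in the last exon, in both libraries of each, against 20.9% of all genes. A further 72 (38.9%) had H3K36me3 in the last exon without H3K27ac in both lists at the start, against 15.1%. The start mark alone was found in 6 (3.24%, against 6.88% of all genes), and 30 (16.2%) had neither, against 57.1% of all genes. Among the 149 genes with H3K36me3 in the last exon, 6 (4.03%) also had H3.3-HA there in both libraries, whereas among all 7874 protein-coding genes so marked 1555 (19.7%) did. For the 122 marked Zfp genes of other chromosomes the share was 3.28%, close to that of the clustered chromosomes. Over whole bodies the shares were 25.5% and 68.5% for the zinc finger genes and all genes, and at the start 17.4% and 23.5%.

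The last exons of the zinc finger genes were longer, with a median of 2494 bp against 1122 bp over all genes. Within last exons of 1 to 3 kb their WT H3K36me3 cover was 69.9% and 72.6% (99 genes), against 33.4% and 34.7% (8442 genes). For last exons of 3 kb or more it was 69.4% and 67.5% (71 genes), against 26.7% and 27.9%. For last exons under 1 kb the gap was smallest, with 44.4% and 43.2% (15 genes) against 30.0% and 31.2%. Last-exon cover was 56.5% and 69.8% in the 5 genes with no finger, 40.9% and 44.9% with 1 to 6 fingers (27 genes), 63.1% and 63.5% with 7 to 12 (82 genes) and 80.4% and 78.7% with 13 or more (71 genes). Across the 185 genes WT H3K36me3 cover of the last exon had a Spearman rho of 0.458 with H3K27ac at the start, 0.264 with the number of fingers, 0.226 with the share of repeated 25-base sequences and -0.0433 with H3.3-HA in the last exon, and the points share libraries and many are tied at 0 or 100.

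Near-identical paralogs make read placement less certain here, since reads were 25 bases at each end. In the last exons of the zinc finger genes 16.0% of bases lay in a 25-base sequence that occurs elsewhere in the genome, against 12.4% over all genes, and in the rest of their bodies 24.5% did. Last exons with under 10% of such bases (105 genes) had WT H3K36me3 cover of 65.9% and 65.4%, those with 10% to 50% (62 genes) 73.9% and 74.6%, and those with 50% or more (18 genes) had 70.5% and 69.9%. On unique bases alone the WT difference between last exon and rest of body was 38.4 points, an alternative chosen after seeing the data.

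With a gap of at most 250 kb between neighbours, 132 of the genes fell into 16 clusters of 3 or more and 53 stood alone or in pairs. WT last exons were covered by H3K36me3 at 71.4% and 72.0% inside clusters and 62.5% and 60.5% outside, and bodies at 41.5% and 42.2% against 24.2% and 24.5%. H3.3-HA bodies went the other way, at 1.55% and 2.37% inside and 3.76% and 5.96% outside. The genes outside include Zfp710, a long gene with a mean of 57.8% of its body in H3.3-HA regions. It weighs heavily in the pooled outside values, and these were not computed without it. By chromosome, WT last-exon cover was highest on chromosome 13 (80.8% and 82.1%), followed by 17 (72.5% and 70.1%), 7 (64.8% and 64.9%) and 8 (61.9% and 63.8%). The values of chromosomes 7 and 8 were within 3 points of each other, and no base of a last exon on chromosome 17 lay in an H3.3-HA region in either library.

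Inside clusters, 111 of the 132 genes had H3K36me3 in the last exon in both WT libraries, as did 38 of the 53 outside. In the 19 genes from Zfp712 to Zfp273 on chromosome 13, WT H3K36me3 covered 85.7% and 88.2% of last exons, 18 of the 19 had a region there in both WT libraries, and 14 had H3K27ac at the start in both. In the 18 genes from Zfp677 to Zfp946 on chromosome 17 last exons were at 79.8% and 77.6%, with 17 of 18 marked, and H3.3-HA covered 0.345% and 0.339% of the bodies. The 15 genes from Zfp84 to Zfp146 on chromosome 7 were at 83.2% and 81.0%, the 11 from Zfp871 to Zfp414 on chromosome 17 at 74.1% and 69.2%, and the 5 from Zfp60 to Zfp850 on chromosome 7 at 74.2% and 75.7%. The 5 genes from Zfp936 to Zfp819, which include Zfp715, were at 81.7% and 77.8%.

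Lower values came from the other clusters of 5 or more. The 5 genes from Zfp868 to Zfp866 on chromosome 8 had 62.3% and 63.2% of last exons covered, the 5 from Zfp329 to Zfp446 on chromosome 7 60.7% and 61.9%, the 12 from Zfp180 to Zfp575 56.5% and 48.0%, and the 6 from Zfp787 to Zfp28 51.0% and 54.1%. The 6 genes from Zfp628 to Zfp580 differed most, with H3K36me3 at 26.0% and 58.4% and H3.3-HA at 15.1% and 24.1% of last exons, and only 4.77% of their bodies in repeated 25-base sequences. The 10 genes from Zfp553 to Zfp646 were next, with H3K36me3 at 45.2% and 55.7% and H3.3-HA at 4.07% and 8.79%. In these 2 clusters H3.3-HA covered 7.16% to 10.9% and 4.77% to 17.7% of the bodies.

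**Figure D3:**
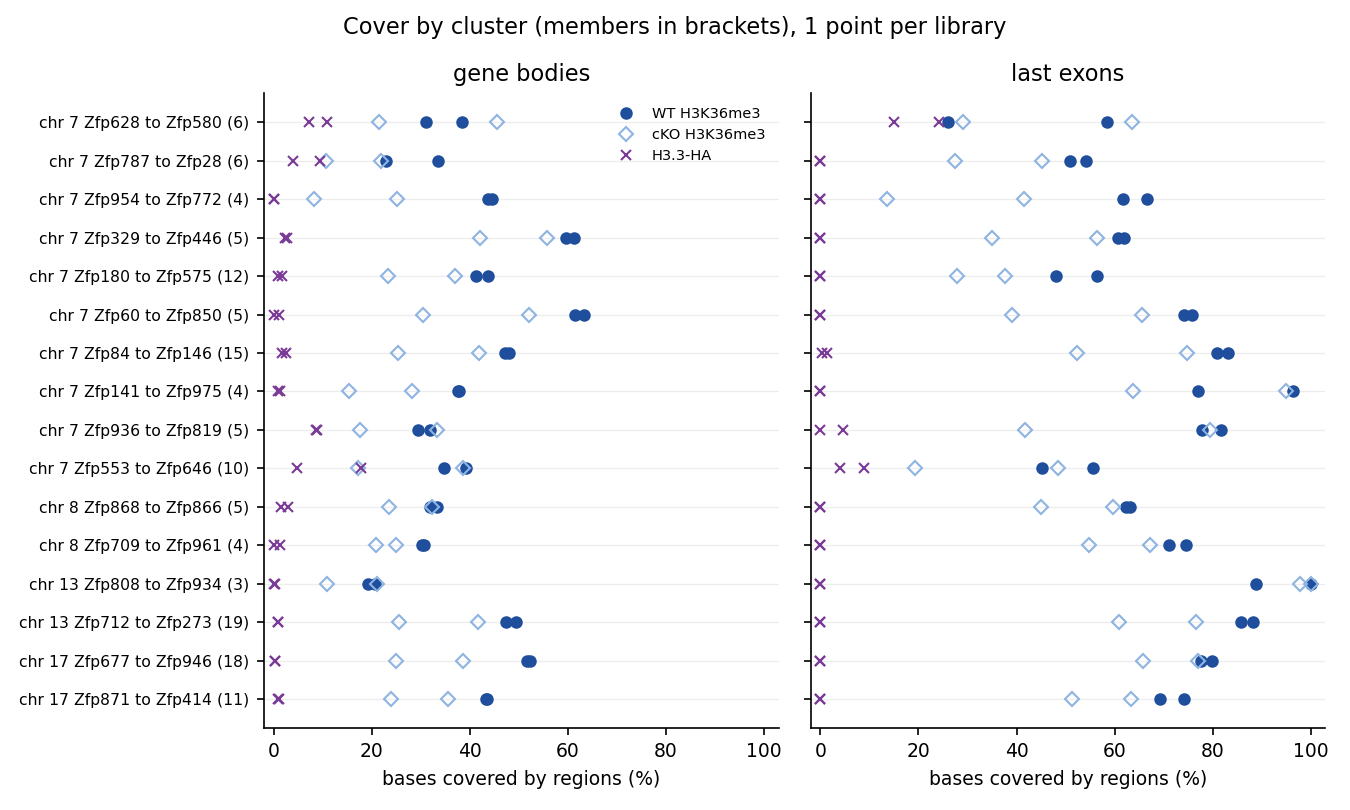
Percent of bases covered (x axis) in gene bodies and last exons for each of the 16 clusters (y axis, number of genes in brackets): WT H3K36me3 (filled circles), cKO H3K36me3 (open diamonds) and H3.3-HA (crosses), 1 point per library. H3.3-HA in last exons is at or near 0 outside the clusters from Zfp628 to Zfp580, Zfp553 to Zfp646 and Zfp936 to Zfp819.

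Not every gene carried the mark. In 23 of the 185 (12.4%) no H3K36me3 region lay in the body in either WT list, against 51.7% of all protein-coding genes. In 19 of the 185 none lay there in any of the 4 lists. Among them, named after their values were seen, were Zfp57, which guards imprinted methylation in the embryo, Zfp42 (Rex1), a marker of pluripotent cells, Zfp423, a regulator of adipocyte commitment, and Zfp366 (DC-SCRIPT), known from dendritic cells. The named genes do not stand for all 19. Zfp446, also one of the 19 and named after its values were seen, had H3K27ac over 30.5% and 0 of its start window in WT and 53.5% and 76.0% in cKO. Zfp36 had no H3K36me3 region in WT and appears below.

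The comparison of cKO with WT asked how the 2 marks differed between the labelled genotypes. The extent of H3.3 loss in these libraries is not given. H3K36me3 covered 34.4% and 34.9% of the zinc finger gene bodies in WT (34.7% ± 0.396, SD, n = 2) and 19% and 30.7% in cKO (24.8% ± 8.27), a difference of -9.86 percentage points. Both cKO libraries lay below both WT libraries, but 2 against 2 cannot go below p = 0.333 (two-sided exact permutation test), and p was 0.333. Without cKO replicate 1, the list of shorter total length, the difference was -4.01 points, and without cKO replicate 2 it was -15.7. With lists of equal length it was -4.04. Over all genes the bodies were at 14.9% and 15.6% in WT and 8.32% and 14.8% in cKO. Relative to the WT mean the difference was -28.4% in the zinc finger genes, -30.1% in the Zfp genes of other chromosomes and -24.1% over all genes. These relative values use both cKO lists and are not given without cKO replicate 1.

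By gene, 101 of the 166 with a region in 1 or more lists (60.8%) had less H3K36me3 in both cKO than in both WT libraries, against 38.3% of all protein-coding genes with a region. Only 4 (2.41%) had more, against 8.17%, and in 61 the groups overlapped. Without cKO replicate 1 the counts were 102 lower (61.4%, against 38.8% of all genes) and 37 higher (22.3%, against 41.1%). With a library left out these counts cannot fall, by construction, so only the shares are compared. With all 4 lists trimmed to equal length they were 44 lower (32.1%, against 17.3%) and 3 higher (2.19%, against 13.8%). In each of these settings a larger share of the zinc finger genes than of all genes was lower, and a smaller share higher. The Zfp genes of other chromosomes were lower in 52.5% and higher in 2.84%.

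The 5 genes with the largest difference were Zfp109, Zfp772, Zfp995, Zfp383 and Zfp758. Zfp109 (chr7:24227572-24237560) had 54.0% and 57.4% of its body covered in WT and no region in either cKO library, and Zfp772 51.0% and 51.2% against none. Zfp995 had 80.7% and 86.0% in WT against 21.4% and 51.1% in cKO. Zfp383 had 53.2% and 55.3% against 0 and 28.4%, so that its difference of -40.0 points rests in part on cKO replicate 1. Zfp758 (chr17:22361453-22377281) had 86.9% and 90.0% against 43.9% and 54.9%. In the cluster from Zfp677 to Zfp946, which holds Zfp995 and Zfp758, 17 of the 18 genes were lower in both cKO libraries, as were 13 of 19 from Zfp712 to Zfp273 and none of 6 from Zfp628 to Zfp580. Among genes with a region, 60.8% of the zinc finger genes and 38.3% of all genes were lower. The cluster counts are small, use cKO replicate 1 and are not given without it.

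In the last exons many genes sat at the ceiling of the measure. Last exons were at 69.1% and 69.0% in WT and 46.9% and 64.8% in cKO, a difference of -13.2 points (exact permutation p = 0.333), which was -4.27 without cKO replicate 1 and -22.2 without cKO replicate 2. With lists of equal length it was -3.97 (exact permutation p = 1.00), and the groups then overlapped. Relative to WT the difference was -19.2%, against -27.4% over all genes. Over all genes the last exons were at 29.9% and 31.2% in WT and 16.0% and 28.4% in cKO. The relative values and the counts of lower and higher last exons are not given without cKO replicate 1. By gene, 48 of 161 last exons with a region (29.8%) were lower in both cKO libraries, against 25.3% of all genes, and 4 (2.48%) were higher, against 5.42%. A last exon wholly covered in a cKO list cannot be called lower, and this held for 75 of the 161 (46.6%, against 51.1% of all genes), so the counts of bodies and last exons are not comparable. Of the 101 genes with lower bodies, 26 (25.7%) had the last exon wholly covered in all 4 lists, where no change of the mark can be seen, among them Zfp758, Zfp995, Zfp942 and Zfp943, against 10.0% of the 4244 such genes overall. Of the 149 last exons marked in both WT libraries, 119 (79.9%) had a region in cKO replicate 1 and 139 (93.3%) in replicate 2, against 66.4% and 89.9% over all genes. In 8 of the 149 (5.37%) the mark was absent from both cKO lists, Zfp109 and Zfp772 included, against 711 of 7874 (9.03%) over all genes.

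**Figure D4:**
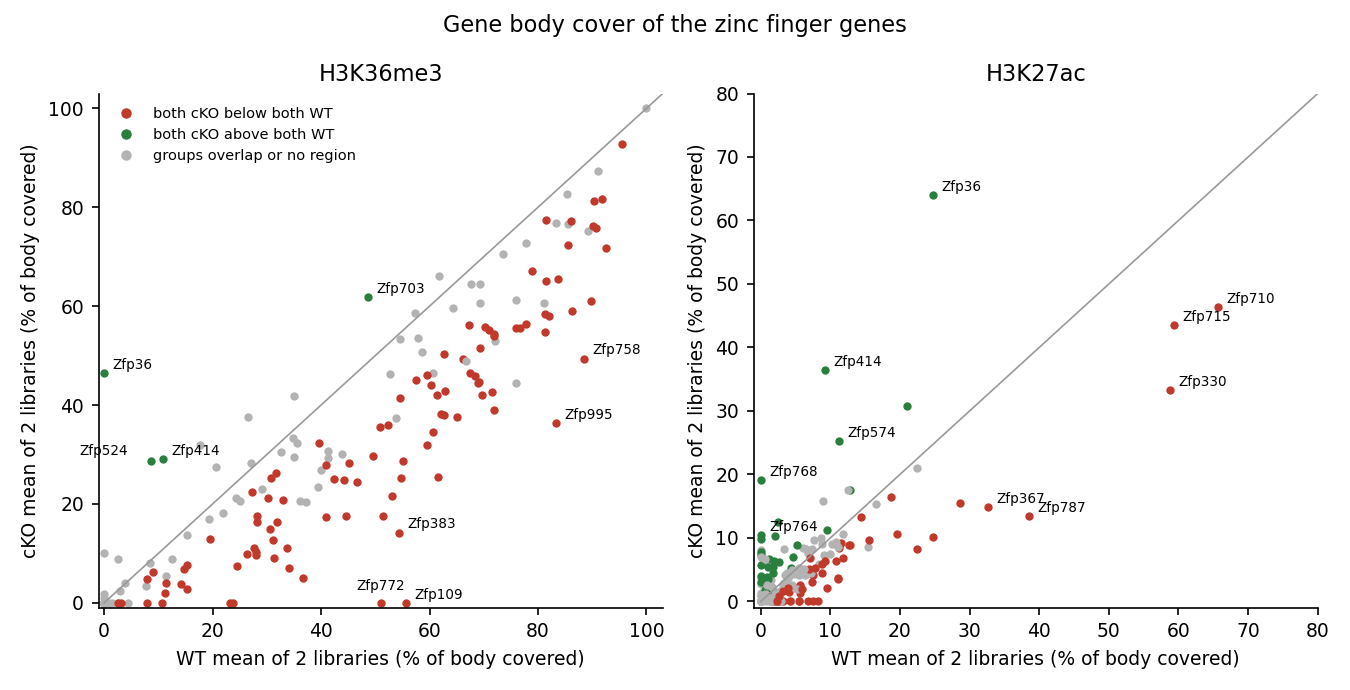
Percent of the gene body covered in WT (x axis) and cKO (y axis), means of 2 libraries, 1 point per zinc finger gene for H3K36me3 (left) and H3K27ac (right). Red points have both cKO libraries below both WT libraries and green points both above: 101 and 4 genes for H3K36me3, 47 and 30 for H3K27ac, and the named genes are those with the largest differences.

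The 4 genes with more H3K36me3 in both cKO libraries were Zfp36, Zfp524, Zfp414 and Zfp703, and 3 of the 4 are among the 5 genes without a C2H2 match. Zfp36 (chr7:28376784-28380253) had no H3K36me3 region in WT and 18.9% and 74.1% in cKO, and its H3K27ac was 19.2% and 30.3% in WT and 52.9% and 75.1% in cKO. Zfp524 had 17.1% and 0 of H3K36me3 in WT against 18.6% and 38.6%, so that 1 pair of libraries nearly touched. Zfp414 had 4.68% and 16.9% against 18.6% and 39.6%. Zfp703 had 38.5% and 58.7% in WT against 61.9% in both cKO libraries.

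**Figure D5:**
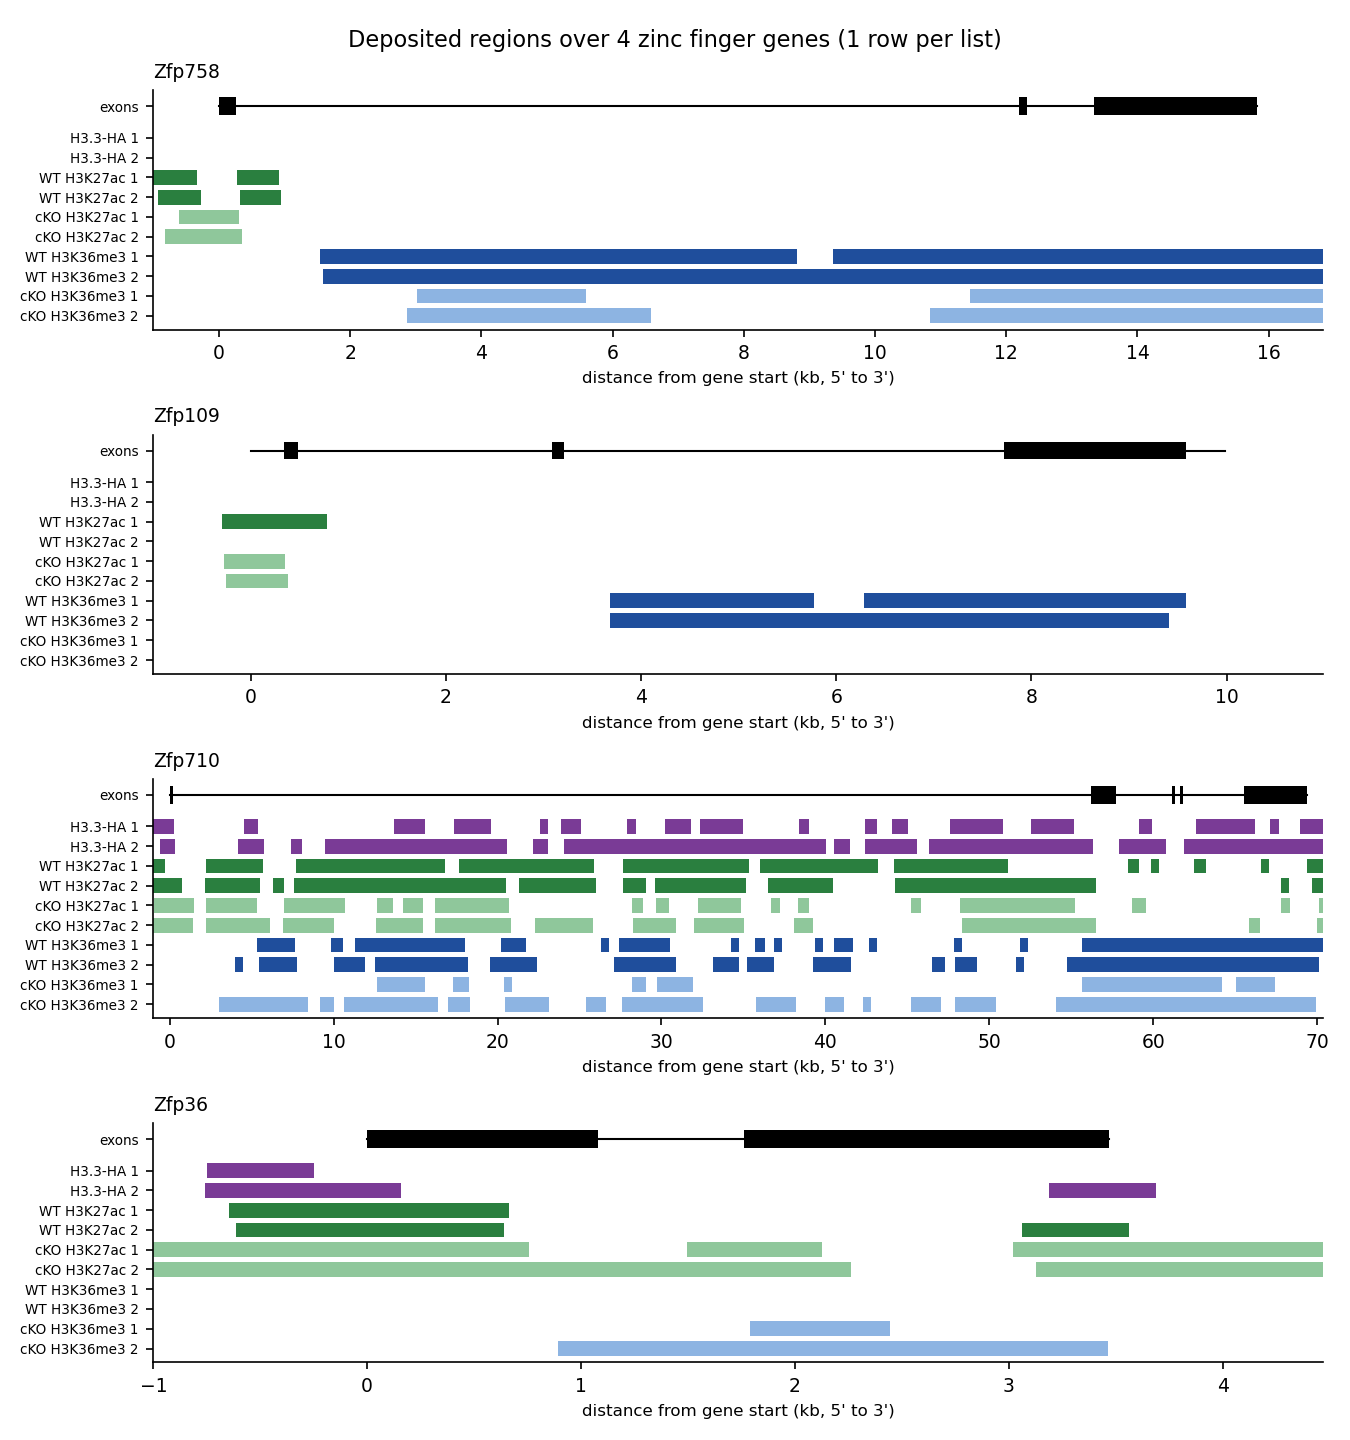
Deposited regions of the 10 lists (coloured bars, 1 row per list) over Zfp758, Zfp109, Zfp710 and Zfp36, with exons in black, by distance from the gene start in kb (x axis, 5' to 3'). In Zfp758 the cKO H3K36me3 regions leave part of the long intron and span the last exon, Zfp109 has none in cKO, Zfp710 carries H3.3-HA along its body, and Zfp36 has H3K36me3 in cKO lists only.

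H3K27ac over the bodies differed less. It covered 5.67% and 4.83% in WT (5.25% ± 0.594, SD, n = 2) and 3.39% and 4.75% in cKO (4.07% ± 0.959), a difference of -1.17 points (two-sided exact permutation p = 0.333). It was -0.496 without cKO replicate 1, -1.85 without cKO replicate 2 and -0.754 without WT replicate 1. As a mean over genes it was -0.331 (p = 1.00 in the same exact test), with regions of at least 1000 bp -0.706 (exact p = 0.667), and with lists of equal length it turned to 1.07. Relative to WT it was -22.4%, against -39.1% over all genes. By gene, 47 of 155 (30.3%) were lower in both cKO libraries, against 41.1% of all genes, and 30 (19.4%) were higher, against 16.0%. With lists of equal length the balance turned over, to 9 lower (7.44%, against 18.8%) and 46 higher (38.0%, against 35.6%). The largest lower values were in Zfp330 (57.9% and 59.8% in WT against 30.7% and 35.9%), Zfp787, Zfp710, Zfp367 and Zfp715, all of them among the genes with the most H3K27ac in WT. After Zfp36, the largest higher values were in Zfp414 (18.6% and 0 against 33.2% and 39.7%), Zfp768 (none in WT against 17.2% and 21.0%), Zfp574 and Zfp764.

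At the start windows the H3K27ac difference had the opposite sign. It covered 28.5% and 25.7% in WT and 27.8% and 40.5% in cKO, a difference of 7.09 points (two-sided exact permutation p = 0.667), with cKO replicate 1 inside the range of WT. The difference was 13.5 without cKO replicate 1 and 0.689 without cKO replicate 2, and 21.2 with lists of equal length. By gene, 42 of 140 start windows (30.0%) were higher in both cKO libraries, against 40.5% of all genes, and 23 (16.4%) were lower, against 12.8%. The share of covered body bases that lay within 1 kb of the start was 26.1% and 26.7% in WT and 41.4% and 42.1% in cKO, and over all genes 5.82% and 6.66% against 14.1% in both. Of the 148 zinc finger genes with a region of each mark, both marks were lower in 29 (19.6%, against 19.5% of all such genes) and both higher in 3 (2.03%, against 2.65%), namely Zfp36, Zfp414 and Zfp524. In 15 (10.1%, against 4.41%) H3K36me3 was lower and H3K27ac higher. The Zfp genes of other chromosomes had about the same share, with 11 of 107 (10.3%).

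The genes that act with the zinc finger proteins and with H3.3 were read from a list of 27 symbols, of which 26 were found: Trim28, Setdb1 and other silencing partners, H3.3 chaperones, and H3K36 methyltransferases. In 22 of the 26 the last exon had H3K36me3 in both WT libraries, with 56.7% and 59.5% of bases covered. Unlike in the zinc finger genes, H3.3-HA was frequent there: 9 of the 26 had a region in the last exon in both libraries, with 21.8% and 12.2% of bases covered. The 2 marks did not always coincide, since Smarcad1 and Uhrf1, among these 9, had no H3K36me3 in the last exon in either WT library. Both shares of the 26 were larger than those given above for the protein-coding genes outside the zinc finger set. Trim28, the corepressor itself, had H3.3-HA over 0 and 100% of its last exon in replicates 1 and 2, and Setdb1 over 18.5% and 100%, so both rest largely on 1 library. Both last exons were at 100% for H3K36me3 in WT. H3K36me3 over the body was lower in both cKO libraries in 7 of the 26 (26.9%, against 38.3% of all genes) and higher in 1 (3.85%, against 8.17%). H3K27ac was lower in 16 (61.5%, against 41.1%) and higher in 4 (15.4%, against 16.0%).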

How the data were processed

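CUT & RUN on BMDMs gave 10 lists of regions, called by the authors with HOMER in its histone mode on paired 25 base reads aligned to mm10 with Bowtie2. Per the file headers, peaks of 500 bp were stitched into regions, with at least 4 times the IgG tags, a Poisson p of 1e-04 over IgG and over the surrounding 10000 bp. The headers name 1 IgG directory for the H3.3-HA libraries, another for the WT and another for the cKO libraries. Which IgG samples stood behind each name, and whether it was the same for both marks, is not given. The treatment of reads that align at several places is not given in the sources used here. The deposited files hold start and end positions, and a score that is 1 for every region and was not used.

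From these, the percent of bases inside regions was computed per gene and window with Python 3.11.15 and numpy 2.4.6. Gene models were the GENCODE M21 transcript with the longest coding sequence. WT and cKO were compared over libraries by a two-sided exact permutation test, and gene by gene by counting genes whose 2 cKO values lay both below or both above the 2 WT values, with no p per gene. The samples are labelled as biological replicates, and whether they came from separate mice is not given in the sources used here, so p-values measure only the spread between these libraries. Functions were tested on simulated data, and finger units were read from the RefSeq GRCm38.p6 sequence. Depth was 5365319 to 29988098 tags, and cover has no sampling interval. The rule on symbol and position that picks the genes, the marker and partner lists and the tests were chosen with earlier results of these data known. Genes named are the 5 highest by cover for each mark over the body and for H3.3-HA and H3K36me3 over the last exon (ties to the longer gene, then by symbol), the 5 largest differences in each direction among genes whose groups did not overlap, those at a median, every cluster of 5 or more, and a few said to be chosen after their values were seen. Alternatives were regions of at least 1000 bp, lists of equal length, bases of other protein-coding genes left out, other windows, means over genes, each library left out, the replicate block and unique bases. The IgG samples had no list to use here, and expression was not analysed here.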

Additional observations from a re-analysis of the deposited data

How the results depend on the processing

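None of the 4 differences between cKO and WT could pass a test with 2 libraries a group, so the directions below are descriptions. With lists of equal length the H3K27ac body difference turned to 1.07 points, and the last exon minus rest of body difference of WT H3K36me3 was 24.6. The counts were then 44 genes lower for H3K36me3 (32.1%, against 17.3% of all genes). For H3K27ac they were 9 lower (7.44%, against 18.8%) and 46 higher (38.0%, against 35.6%). With 5 kb upstream plus the body as window, H3K27ac was -0.811 in place of 7.09. With regions of at least 1000 bp the H3.3-HA last exon minus rest difference was -0.957. In that setting 2 genes were higher for H3K36me3 (1.28%, against 7.87% of all genes) and 29 lower for H3K27ac (28.4%, against 37.8%). Leaving out bases of other protein-coding genes gave -2.05 for H3.3-HA and 39.8 for H3K36me3, unique bases (chosen after seeing the data) -1.69 and 38.4, and the union of last exons 36.7 for H3K36me3. The causes were not tested, except for what follows by construction. Trimming shortens the longer lists. Leaving out 1 library compares 2 against 1, so a count of genes apart can only stay or rise. In that setting genes higher for H3K36me3 ranged from 4 to 37, genes lower for H3K27ac from 50 to 72 and genes higher from 34 to 61. The highest counts were 37 without cKO H3K36me3 replicate 1 (22.3%, against 41.1% of all genes) and 72 without WT H3K27ac replicate 2 (47.4%, against 57.8%). Genes higher for H3K27ac were 61 without cKO replicate 1 (39.9%, against 34.5%) and 49 without WT replicate 1 (32.9%, against 26.2%).

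Replicate numbers are shared by WT and cKO, but nothing says that a number marks a shared animal or day. Over all genes the replicate differences of WT and cKO correlated at 0.154 for H3K36me3 and -0.0953 for H3K27ac. With the replicate block, 112 genes were lower and 5 higher for H3K36me3, and 50 lower and 32 higher for H3K27ac. The shares over all genes are not given for the block, so these counts are no result about the zinc finger genes. The 4 differences kept their values, with p of 0.500 in the exact sign-flip test over 2 pairs for both bodies and the last exons, the smallest that 2 pairs allow, and 1.00 for the start windows.

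Region lists hold no signal strength, so a mark that weakened without leaving a region is not seen, and the shallow H3.3-HA lists limit what their absence shows.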
